A study of Mus musculus with 12 samples.

Results

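Annexins are cytosolic proteins that bind the inner face of membranes when calcium rises, and S100 proteins are small calcium sensors, several of which pair with an annexin. The transcripts described here are 10 genes out of 39756 in the deposited table of read counts: 5 annexins (Anxa1, Anxa2, Anxa3, Anxa4 and Anxa5) and 5 S100 genes (S100a4, S100a6, S100a10, S100a11 and S100b). They were found by exact match of the gene symbol, and all 10 passed the filter on low counts. The list was chosen from earlier results of these same mice, without a record of which of the 3 comparisons guided it, so the values of the 10 genes are given as a description, with no p-value, and support nothing by themselves.

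The counts come from poly(A) RNA of ischemic hemispheres of 12 C57BL/6J mice, 4 in each of 3 groups. The mice were males aged 9 to 10 weeks. Sham mice had sham surgery and received saline, Vehicle mice had left transient middle cerebral artery occlusion (tMCAO, 45 min) with reperfusion and received saline, and LJP mice had the same occlusion and received Laminaria japonica polysaccharide, a sulfated seaweed polysaccharide. Saline or LJP was given into the stomach daily for 14 days before surgery and continued afterwards. The study took its middle dose forward after comparing doses, but the dose and the time of sampling of the sequenced mice were not given in the sources used here. All libraries carry the same batch label.

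Annexin A2 and S100A10 form a complex at the cell surface that binds plasminogen and its activator, and annexin A1, which pairs with S100A11, is a ligand of the formyl peptide receptor Fpr2. S100A4 and S100A6 are small calcium sensors of motile and dividing cells, annexin A5 binds phosphatidylserine exposed on dying cells, and S100B is a classical protein of astrocytes. Both families have also been tied to the sealing of torn plasma membranes, together with dysferlin and calpains. In whole tissue, more RNA per cell and more cells of a type cannot be told apart.

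Of the S100 genes on the list, S100a4, S100a6, S100a10 and S100a11 lie in the S100 cluster of mouse chromosome 3, which ran from S100a1 at 90511034 to the end of S100a10 at 93564645 in GRCm38 and held 15 S100 genes. S100a4 spans 90603770 to 90606045, S100a6 spans 90612894 to 90614414, S100a11 spans 93520496 to 93526288 and S100a10 spans 93555117 to 93564645, all on the plus strand. S100b lies apart, on chromosome 10 from 76253836 to 76261319 on the plus strand. The annexins are spread over the genome. Anxa1 lies on chromosome 19 from 20373434 to 20390671 on the minus strand, Anxa2 on chromosome 9 from 69453683 to 69491792 on the plus strand, and Anxa3 on chromosome 5 from 96793385 to 96845968 on the plus strand. Anxa4 lies on chromosome 6 from 86736840 to 86793634 and Anxa5 on chromosome 3 from 36448923 to 36475887, both on the minus strand.

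Promoter sequence was read from RefSeq windows of GRCm38.p6 that reach from 250 bases before to 50 bases after a gene's start. Windows were found for 8 of the 10 genes, 9 windows in all because Anxa4 has a pair, and none was found for Anxa3 and S100a10. Both strands were searched for 6 short motifs: AP-1 (TGANTCA), CRE (TGACGTCA), NF-kappa B (GGGANTTTC), STAT (TTCNNNGAA), SP1 (GGGCGG) and the TATA box (TATAAA). The AP-1 letters were present in Anxa2 and S100a11, against 7.81% of all 32851 promoter windows. The TATA letters were present in Anxa1, Anxa2 and S100a4 (13.6% of all windows), the SP1 letters in Anxa2, Anxa4 and S100a11 (35.7%), and the NF-kappa B letters in Anxa4 (1.11%). CRE letters (1.79% of all windows) and STAT letters (8.3%) were found in none of the 9 windows, and none of the 6 motifs was found in the windows of Anxa5, S100a6 and S100b. The stretches below, all upstream of the start, are shown because they belong to 4 of the genes that were most different between Vehicle and Sham and, in S100b, to the gene that was not. AP-1 and TATA letters are in capitals, and a match is only a match of letters.
Anxa1 (chr19:20390683-20390718, minus strand): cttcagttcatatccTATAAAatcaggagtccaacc
S100a4 (chr3:90603724-90603759, plus strand): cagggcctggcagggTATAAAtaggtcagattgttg
Anxa2 (chr9:69453573-69453682, plus strand): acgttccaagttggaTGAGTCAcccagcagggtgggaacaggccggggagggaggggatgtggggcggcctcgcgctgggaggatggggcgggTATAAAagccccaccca
S100a11 (chr3:93520345-93520479, plus strand): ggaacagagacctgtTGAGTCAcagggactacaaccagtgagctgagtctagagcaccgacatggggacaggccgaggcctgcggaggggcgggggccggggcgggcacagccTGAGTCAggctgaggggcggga
S100b (chr10:76253716-76253835, plus strand): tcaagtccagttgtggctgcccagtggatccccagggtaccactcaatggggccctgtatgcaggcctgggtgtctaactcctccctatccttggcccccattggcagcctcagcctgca
The TATA letters began 32 bases before the start in Anxa1, 31 before it in S100a4 and 17 before it in Anxa2. The AP-1 letters began 95 bases before the start in Anxa2, and 136 and 38 bases before it in S100a11.

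Total counts per mouse ranged from 17960353 to 22216315. CPM stands for counts relative to the library size after TMM scaling, and 3 counts, the limit that a count of 0 allows, correspond to 0.129 to 0.173 CPM by the normalized library size. Depth was ample for most of the genes but thin for Anxa1 and S100a4 in Sham, where Anxa1 had 8 to 25 counts and S100a4 had 9 to 16. Vehicle mouse 2, and after it Vehicle mouse 1, stood apart from Vehicle mice 3 and 4. Over the 9 genes other than S100b, the median log2 change from the Sham mean was 3.45 in Vehicle mouse 1, 3.89 in mouse 2, 1.80 in mouse 3 and 2.66 in mouse 4. Vehicle mouse 2 was the highest Vehicle mouse for 8 of these 9 genes and Vehicle mouse 1 for S100a4. The LJP mice had medians of 1.58, 0.90, 1.85 and 1.09, and LJP mouse 3 was the highest LJP mouse for all 9 genes.

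Ischemia with vehicle was set against sham surgery first. At an edgeR adjusted p below 0.05, 9 of the 10 genes were higher in Vehicle, all but S100b, and in each of the 9 every Vehicle mouse lay above every Sham mouse. Over all 17558 genes tested, 22.7% were called higher and 20.7% had every Vehicle mouse above every Sham mouse. Because the list was chosen with these values in view, nothing is read from that contrast. The median log2 fold change was 2.65 over the 10 genes and 3.54e-05 over all genes tested. The threshold left S100b outside, and Anxa5, with the smallest log2 fold change of the 9 at 0.96, inside.

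The annexin with the largest log2 fold change in Vehicle was Anxa1, a calcium-dependent membrane protein whose secreted form restrains leukocytes. It lay at 0.46, 1.36, 0.82 and 1.24 CPM in the Sham mice, at 12.6, 46.2, 3.28 and 6.57 in the Vehicle mice and at 1.14, 1.23, 2.45 and 1.90 in the LJP mice. All Vehicle mice were above all others, and Vehicle mouse 2 alone was far above the rest. The log2 fold change of Vehicle against Sham was 4.13 (SE 0.75), a fold of 17.5, and it was 2.93 without Vehicle mouse 2.

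Anxa2, the plasminogen-binding annexin, lay at 7.96, 9.43, 8.44 and 8.29 CPM in Sham, at 119, 234, 47.0 and 66.4 in Vehicle and at 31.1, 23.7, 47.5 and 23.3 in LJP. The Sham mice were tightly grouped, the Vehicle mice differed 4.96-fold among themselves, and LJP mouse 3 reached the level of Vehicle mouse 3. Its log2 fold change in Vehicle was 3.77 (SE 0.45), or 3.17 without Vehicle mouse 2.

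Its partner S100a10, the light chain of the annexin A2 complex, moved over a narrower range. It lay at 11.3, 11.7, 13.9 and 12.7 CPM in Sham, at 48.9, 53.0, 32.7 and 31.6 in Vehicle and at 23.0, 23.1, 32.4 and 26.5 in LJP. Vehicle mice 1 and 2 were the high pair, and LJP mouse 3 lay between Vehicle mice 4 and 3. The log2 fold change in Vehicle was 1.75 (SE 0.18), a fold of 3.35.

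S100a11, the calcium sensor that pairs with annexin A1, had the largest log2 fold change of the 10 genes in Vehicle, 4.70 (SE 0.54), a fold of 26.0. It lay at 1.96, 1.20, 2.30 and 1.92 CPM in Sham, at 55.2, 94.7, 17.0 and 24.9 in Vehicle and at 11.7, 8.44, 18.4 and 9.53 in LJP. No Sham mouse came near the other groups, and again only LJP mouse 3 lay inside the Vehicle range.

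S100a4, known from fibroblasts and myeloid cells, lay at 0.86, 0.49, 0.88 and 0.52 CPM in Sham, at 16.8, 14.01, 5.97 and 5.93 in Vehicle and at 3.95, 3.73, 5.93 and 3.07 in LJP. Its Vehicle mice fell into a high pair, mice 1 and 2, and a lower pair, and LJP mouse 3 was level with the lower pair. The log2 fold change in Vehicle was 3.95 (SE 0.42). S100a6, also called calcyclin, lay at 7.73, 7.46, 6.47 and 7.10 CPM in Sham, at 79.7, 108, 32.3 and 45.9 in Vehicle and at 30.4, 21.5, 39.1 and 22.7 in LJP, with a log2 fold change in Vehicle of 3.21 (SE 0.34).

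The remaining annexins differed less. Anxa3, found in microglia among other cells, lay at 7.96, 8.17, 9.32 and 10.3 CPM in Sham, at 28.2, 51.4, 31.3 and 25.9 in Vehicle and at 21.3, 16.6, 30.2 and 13.99 in LJP. Its log2 fold change in Vehicle was 1.94 (SE 0.26). Anxa4, a membrane-binding annexin typical of epithelia, lay at 2.25 to 3.27 CPM in Sham. Its Vehicle levels were 8.26, 22.7, 8.93 and 8.41 CPM and its LJP levels 8.63, 4.75, 10.4 and 5.74. The difference between Vehicle mouse 2 and the other 3 was larger than any difference among those 3, and the log2 fold change of 2.08 (SE 0.36) became 1.57 without it.

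Anxa5, the phosphatidylserine-binding annexin, was already abundant in Sham at 34.4, 41.4, 39.0 and 38.1 CPM. It lay at 52.8, 115, 60.1 and 70.6 in Vehicle and at 58.9, 42.6, 66.7 and 44.9 in LJP, with a log2 fold change in Vehicle of 0.96 (SE 0.22), or 0.67 without Vehicle mouse 2. S100b, by contrast, lay at 55.0, 62.0, 56.6 and 62.1 CPM in Sham, at 48.7, 55.0, 56.4 and 60.8 in Vehicle and at 58.1, 49.8, 57.2 and 51.4 in LJP. The 3 groups of S100b overlapped throughout, and its log2 fold change was -0.09 (SE 0.09) in Vehicle and -0.12 (SE 0.09) in LJP, each against Sham.

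**Figure D1:**
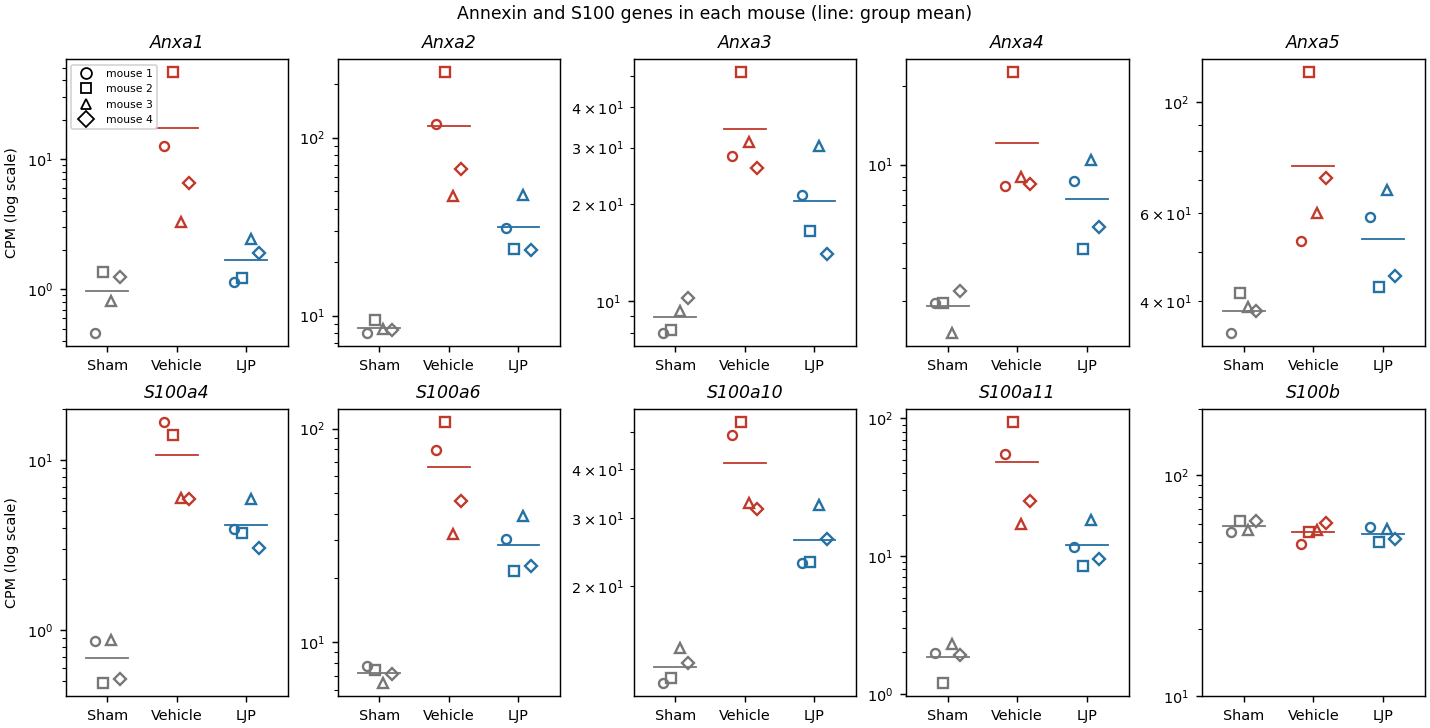
CPM on a log axis of the 10 genes in each of the 12 mice, by group, with a symbol for each mouse number and a line at the group mean. The Vehicle mice lie above all Sham mice in 9 panels, with mouse 2 (square) the highest in 8 of them, while the S100b panel shows 3 overlapping groups.

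Leaving out Vehicle mice 1 and 2 together, an alternative chosen after seeing the data, kept 9 of the 10 genes past the threshold against Sham, where 15.7% of all genes were called higher. The log2 fold changes were then 2.32 for Anxa1, 2.73 for Anxa2, 1.67 for Anxa3, 1.60 for Anxa4 and 0.77 for Anxa5. Among the S100 genes they were 3.10 for S100a4, 2.44 for S100a6, 1.37 for S100a10 and 3.50 for S100a11. S100b lay at -0.01.

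Compared per length, as RPKM (CPM per kilobase of the gene length in the table), the order of the transcripts was not the same in the 3 groups. In Sham, S100b led at 35.5 ± 2.20 RPKM (SD, n = 4), followed by Anxa5 at 22.2 ± 1.68, S100a10 at 19.1 ± 1.78 and S100a6 at 9.9996 ± 0.76, and the mice of Anxa5 and S100a10 overlapped. Anxa1 came last at 0.70 ± 0.30, close to Anxa4 at 1.04 ± 0.16 and S100a4 at 1.10 ± 0.34. In Vehicle, the means of S100a11 (95.2 ± 69.95 RPKM) and S100a6 (92.3 ± 47.2) were the highest, ahead of Anxa2 (64.7 ± 46.5) and S100a10 (63.9 ± 16.9), and the ranges of these 4 genes overlapped between mice. Within each of the 4 Vehicle mice, S100a11 and S100a6 were both above Anxa2, whereas the order of S100a11 and S100a6 and the place of S100a10 differed from mouse to mouse. S100b, at 33.2 ± 3.01 RPKM, was then the sixth of the 10. In LJP, S100a10 (40.4 ± 6.80) and S100a6 (39.5 ± 11.3) had the highest means, followed by S100b (32.6 ± 2.49) and Anxa5 (30.9 ± 6.67).

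The genes that encode partner proteins did not keep a fixed ratio. The RPKM of S100a10 over that of Anxa2 within a mouse was 3.93, 3.42, 4.55 and 4.26 in Sham, 1.14, 0.63, 1.93 and 1.32 in Vehicle and 2.05, 2.70, 1.89 and 3.15 in LJP. Sham mice were all above the other mice, and Vehicle and LJP overlapped only through Vehicle mouse 3 and LJP mouse 3. The ratio of S100a11 to Anxa1 was 6.55 ± 4.11 (SD, n = 4) in Sham, 10.7 ± 3.68 in Vehicle and 20.5 ± 6.02 in LJP, where the Sham and LJP values rest on low counts of Anxa1. The ratio of S100a11 to Anxa2 was 0.78 ± 0.23 in Sham and nearly level in the other groups, at 1.44 ± 0.16 in Vehicle and 1.36 ± 0.08 in LJP. These ratios use the same values that chose the list and were not tested.

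**Figure D2:**
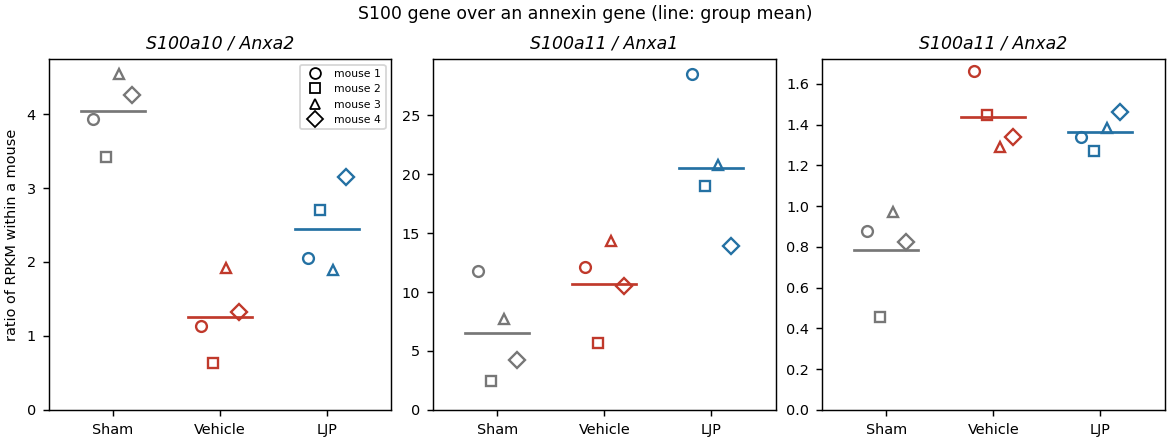
Ratio of the RPKM of an S100 gene to that of an annexin gene within each mouse, by group, with a symbol for each mouse number and a line at the group mean. S100a10 over Anxa2 is lowest in Vehicle mouse 2 (0.63), whereas S100a11 over Anxa2 has nearly the same mean in Vehicle (1.44) and LJP (1.36).

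LJP was then set against Vehicle to ask whether treatment went with a different level. All 10 log2 fold changes were below 0, with a median of -0.98 against -0.0017 over all genes tested, yet none of the 10 genes had an edgeR adjusted p below 0.05, while 0.0228% of all genes, 4 in number, were called lower. At an unadjusted p below 0.05, 8 of the 10 were lower, against 17.4% of all genes. DESeq2 called 7 of the 10 lower, where it called 9.15% of the genes it tested. The group ranges were separate for Anxa1 alone, 1 of 10, against 5.91% of all genes. Nothing is read from these counts either, since this contrast too was known when the list was made.

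In size, the lowest log2 fold change was that of Anxa1, -3.37 (SE 0.70), followed by S100a11 at -2.001 (SE 0.45) and Anxa2 at -1.89 (SE 0.41). S100a4 lay at -1.36 (SE 0.35), S100a6 at -1.22 (SE 0.31), Anxa3 at -0.74 (SE 0.25) and Anxa4 at -0.71 (SE 0.34). S100a10 lay at -0.66 (SE 0.17), Anxa5 at -0.49 (SE 0.22) and S100b at -0.03 (SE 0.09). Much of the size rested on the upper Vehicle mice. Without Vehicle mouse 2 the values were -2.17 for Anxa1, -1.30 for Anxa2, -1.43 for S100a11, -0.20 for Anxa5 and -0.21 for Anxa4. Without Vehicle mice 1 and 2 they were -1.56 for Anxa1, -0.85 for Anxa2, -0.81 for S100a11, -0.51 for S100a4 and -0.46 for S100a6, and the count of calls was 0. Without Vehicle mouse 3, or without Vehicle mouse 4, edgeR called 6 of the 10 genes lower in LJP, while the share of all genes called lower was 13.1% without mouse 3 and 8.38% without mouse 4.

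The highest LJP mouse, mouse 3, was also set beside Vehicle mouse 3, as a description of 2 animals. Among the annexins, its level was 0.75 times that of Vehicle mouse 3 for Anxa1, 1.01 times for Anxa2, 0.97 times for Anxa3, 1.17 times for Anxa4 and 1.11 times for Anxa5. Among the S100 genes the ratio was 0.99 for S100a4, 1.21 for S100a6, 0.99 for S100a10, 1.08 for S100a11 and 1.01 for S100b.

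LJP was last compared with Sham. The edgeR test called 7 of the 10 genes higher in LJP, against 3.85% of all genes, and the ranges were separate, with LJP higher, for 8 of the 10, against 12.9% of all genes. The median log2 fold change was 1.29 over the 10 genes. Nothing is read from these counts, for the same reason. S100a11 was at 2.70 (SE 0.52), S100a4 at 2.59 (SE 0.42), S100a6 at 1.98 (SE 0.33) and Anxa2 at 1.88 (SE 0.43). Anxa4 lay at 1.37 (SE 0.36), Anxa3 at 1.20 (SE 0.26) and S100a10 at 1.08 (SE 0.18). The 3 genes not called were Anxa1 at 0.76 (SE 0.77), Anxa5 at 0.48 (SE 0.22) and S100b at -0.12 (SE 0.09). For Anxa1, 2 of the 4 LJP mice lay within the Sham range. The count was 4 without LJP mouse 1 or 3 or without Sham mouse 1, 2 or 3, fits in which 2.39%, 1.96%, 1.99%, 2.11% and 2.08% of all genes were called higher, in that order. It was 5 without Sham mouse 4 (2.11% of all genes), 6 without LJP mouse 4 (3.61%) and 8 without Vehicle mouse 2 (7.77%). The genes lost were among Anxa2, Anxa3 and Anxa4, whereas S100a4, S100a6, S100a10 and S100a11 were called under every alternative tried. These refits use the values that chose the list, so they too are a description and no support.

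Of the annexin and S100 genes not on the list, which were taken by family name and not by how they moved, 9 of 20 passed the low-count filter. In Vehicle against Sham, 8 of the 9 were called higher and none lower, where 22.7% of all genes were called higher. S100a3 and Anxa8 passed the filter only through the Vehicle mice, where they were high, since a gene needed 0.531 CPM in 4 mice and no Sham mouse reached that level for either gene, so their calls are no support. Among the other 7 genes, 6 were called higher. Of the S100 genes among these, S100a1, S100a13 and S100a16 rose. S100a13, a carrier in unconventional secretion, rose from 7.58 ± 0.60 CPM (SD, n = 4) in Sham to 22.1 ± 3.63 in Vehicle (log2 fold change 1.55, SE 0.14, edgeR adjusted p = 5.24e-05). S100a16, a broadly expressed calcium sensor, rose from 42.3 ± 2.51 to 128 ± 20.6 CPM (1.60, SE 0.15, edgeR adjusted p = 7.47e-05). S100a1, best known from muscle and also present in brain, rose from 24.5 ± 1.22 to 42.3 ± 1.70 CPM (0.79, SE 0.08, edgeR adjusted p = 9.61e-05). The calls of S100a1, S100a13 and S100a16 held under every alternative tried. As a description only, S100a3 lay at 0.31 ± 0.12 CPM in Sham and 1.38 ± 0.59 in Vehicle (log2 fold change 2.11, SE 0.42). S100a1 and S100a13 lie on opposite strands and share 98 bases, and the strand setting of the counting was not given in the sources used here, so reads from that stretch are uncertain.

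Among the annexins not on the list, Anxa7, Anxa9 and Anxa11 were called higher in Vehicle and Anxa6 was not, where 22.7% of all genes were called higher. Anxa7 rose by a log2 fold change of 0.67 (SE 0.15, edgeR adjusted p = 0.0043). Anxa11 rose by 0.62 (SE 0.15, adjusted p = 0.0063) and Anxa9 by 1.12 (SE 0.38, adjusted p = 0.0316). Anxa8 had a log2 fold change of 2.19 (SE 0.58), a description only, since it passed the filter only through the Vehicle mice. Anxa8 and Anxa9 were scarce, at 0.34 and 0.92 CPM on average in Sham, and the span of Anxa9 overlaps Cers2 and Mindy1 on the other strand. Anxa6, the annexin with a duplicated core, lay at 109 ± 2.12 CPM (SD, n = 4) in Sham, 114 ± 5.84 in Vehicle and 108 ± 4.73 in LJP, with a log2 fold change of 0.07 (SE 0.06, adjusted p = 0.37) in Vehicle. Without Vehicle mouse 2 the log2 fold change of Anxa8 was 1.36, and it was 0.71 and no longer called without Vehicle mice 1 and 2. Anxa9 was at 0.82 (adjusted p = 0.11) without Vehicle mouse 2 and was also not called without Sham mouse 1, 3 or 4. With Vehicle mice 1 and 2 left out together, 6 of the 9 family genes were called higher in Vehicle against Sham, against 15.7% of all genes.

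In LJP against Sham, the 4 S100 genes S100a1, S100a3, S100a13 and S100a16 were called higher and none of the 5 annexins was, where 3.85% of all genes were called. The log2 fold changes were 0.58 (SE 0.08, edgeR adjusted p = 0.0018) for S100a1, 1.62 (SE 0.43, adjusted p = 0.0486) for S100a3, 1.19 (SE 0.14, adjusted p = 7.65e-04) for S100a13 and 1.03 (SE 0.15, adjusted p = 0.0023) for S100a16. Those of the annexins lay between -0.01 for Anxa6 and 0.50 for Anxa9. Leaving out any mouse except Vehicle mouse 2, Vehicle mouse 4 or LJP mouse 4 gave 3 calls in place of 4, the lost gene being S100a3 each time, and without the filter its adjusted p was 0.0620. Whether the families differ was not tested. In LJP against Vehicle all 9 log2 fold changes were below 0, 6 of them at an unadjusted p below 0.05 (17.4% of all genes were lower at that p), but none was called by edgeR, and DESeq2 called 5 lower among all 20 (9.15% of the genes it tested), of which 3 had passed the filter and the others were S100a8 and S100a9. Without Vehicle mouse 3 edgeR called 5 of the 11 then tested lower (13.1% of all genes) and without Vehicle mouse 4 it called 3 of 9 (8.38%). The smallest adjusted p was that of S100a16 (log2 fold change -0.57, SE 0.15, edgeR adjusted p = 0.0678).

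**Figure D3:**
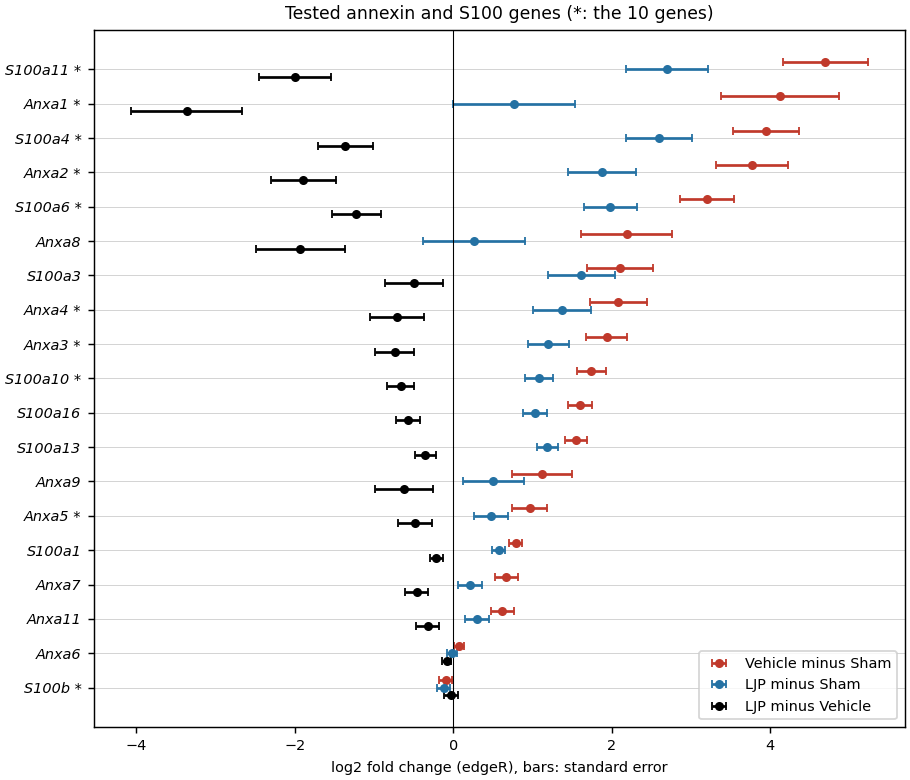
Log2 fold changes from edgeR, with standard errors as bars, of the 19 annexin and S100 genes that were tested, in the 3 comparisons, sorted by Vehicle minus Sham. They run from S100a11 (4.70) to S100b (-0.09) in Vehicle minus Sham. Only S100b and Anxa6 were not called in that comparison, where 22.7% of all genes were called higher. The calls of the listed genes are no support, since the list was chosen with these values in view. Those of Anxa8 and S100a3 are no support either, since both passed the low-count filter only through Vehicle.

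Along the chromosome 3 cluster all 8 tested S100 genes were called higher in Vehicle than in Sham, with log2 fold changes from 0.79 for S100a1 to 4.70 for S100a11, where 22.7% of all genes were called higher. Of the 8, S100a4, S100a6, S100a10 and S100a11 belong to the list that was chosen with these values in view. S100a3 is among the other 4 and passed the filter only through Vehicle. Only the calls of S100a1, S100a13 and S100a16 can therefore be set beside that share. The 7 cluster genes that were not tested had few counts in most mice. Between S100a4 and S100a6, S100a5 had at most 2 counts in any mouse, and elsewhere in the cluster S100a2 also had at most 2, S100a7a had at most 13, S100a14 at most 4 and S100a7l2 none. S100a8 and S100a9, the pair that forms calprotectin of neutrophils, had 3 counts or fewer in every Sham mouse. S100a8 lay at 52.6, 11.9, 0.22 and 1.78 CPM and S100a9 at 62.1, 12.98, 0.16 and 1.46 CPM in the Vehicle mice, and in the LJP mice S100a8 did not exceed 0.22 CPM and S100a9 did not exceed 0.32. Vehicle mouse 3 had only 4 counts of S100a8 and 3 of S100a9, although its S100a4, S100a6 and S100a11 were above every Sham mouse.

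These genes were removed by the filter and were compared by exact two-sided permutation tests on log2(CPM + 0.5), 27 tests over 9 low-count genes of the families and partner lists. The exact p of Vehicle against Sham was 0.0286 for S100a8 and for S100a9, the smallest that 4 mice against 4 allow, and 0.129 after Benjamini-Hochberg adjustment over the 27 tests, with all 4 Vehicle mice above all 4 Sham mice. LJP against Vehicle gave an exact p of 0.0571 for S100a8 and 0.114 for S100a9 (0.193 and 0.309 after adjustment). S100a7a went the other way, with 6 to 13 counts in Sham, 1 to 4 in Vehicle and 4 to 7 in LJP, and each of its 3 comparisons gave that smallest exact p of 0.0286 (0.129 after adjustment). S100a14 had 0 or 1 count in the Sham mice, 3 or 4 in the Vehicle mice and 0 to 3 in the LJP mice (Vehicle against Sham, exact p = 0.0286, adjusted 0.129; DESeq2 adjusted p = 0.0900). LJP against Vehicle gave an exact p of 0.0571 for S100a14 (0.193 after adjustment), and LJP against Sham gave 0.2 for S100a9 and S100a14 and 0.629 for S100a8 (0.415 and 0.943 after adjustment). DESeq2, which used no such filter, gave adjusted p-values of 1.52e-06 for S100a8, 8.36e-07 for S100a9 and 0.0068 for S100a7a in Vehicle against Sham. In LJP against Vehicle its adjusted p-values were 2.77e-04 for S100a8 and 6.80e-04 for S100a9.

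**Figure D4:**
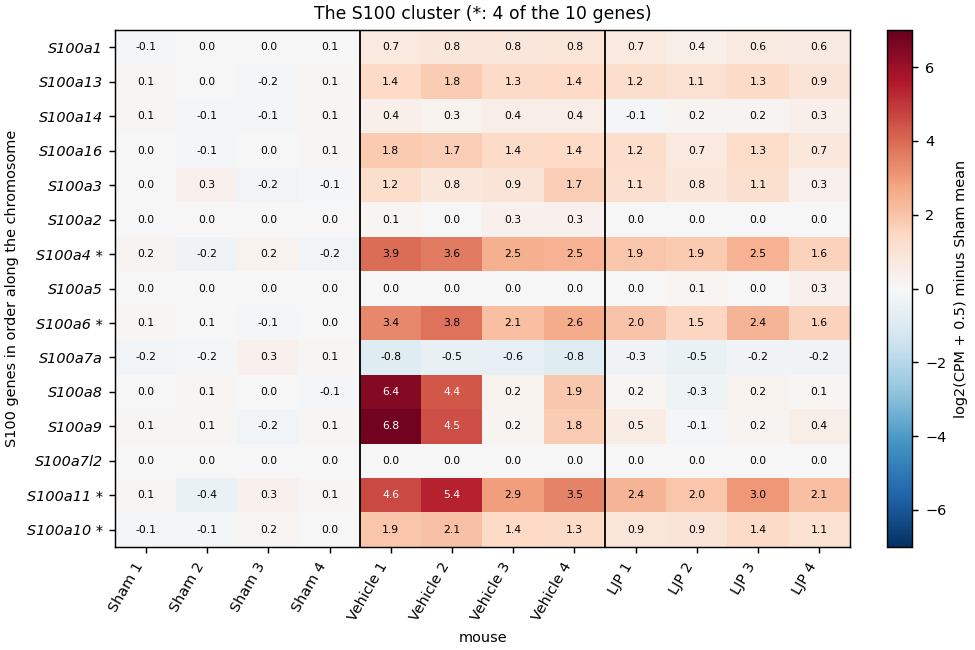
Change of the 15 S100 genes of the chromosome 3 cluster, in their order along the chromosome, in each mouse, as log2(CPM + 0.5) minus the Sham mean; the numbers in the cells are the same values. S100a8 and S100a9 are high in Vehicle mice 1 and 2, whereas S100a4, S100a6, S100a10, S100a11, S100a13 and S100a16 are above every Sham mouse in all Vehicle and LJP mice.

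The receptors and partners of these proteins and the genes of membrane repair, 31 genes in all, were mixed. They were written from general knowledge, but with earlier results of these data known. Their counts are therefore given as a description. Of the 26 tested, 17 were called higher and 3 lower in Vehicle against Sham, against 22.7% and 17.3% of all genes, and without Vehicle mice 1 and 2 together 13 were called, against 29.7% of all genes. Of the 13 repair genes tested, 11 were called higher, with a median log2 fold change of 0.83. Dysf, the membrane-repair protein dysferlin, rose from 4.00 ± 0.60 to 27.9 ± 17.997 CPM (SD, n = 4; log2 fold change 2.81, SE 0.41, edgeR adjusted p = 4.63e-04). Ehd2 (2.58, SE 0.43), a scaffold of caveolar necks, Cavin1 (2.23, SE 0.40), a coat protein of caveolae, and the calpain genes Capns1 (0.83, SE 0.12) and Capn2 (0.81, SE 0.14) also rose. Without Vehicle mouse 2 the log2 fold changes were 1.88 for Ehd2 and 1.505 for Cavin1, both still called. Vps4a and Vps4b, the ATPases that recycle the ESCRT machinery, had log2 fold changes of -0.03 (SE 0.07) and 0.19 (SE 0.11) and were not called.

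Among the receptors and partners, 6 of 13 were called higher and 3 lower, against 22.7% and 17.3% of all genes, so the share called lower was near the background. Plaur, the urokinase receptor, had the largest log2 fold change, rising from 0.79 ± 0.16 to 33.5 ± 29.4 CPM (SD, n = 4; 5.40, SE 0.79, edgeR adjusted p = 4.99e-04). Plat, tissue plasminogen activator, which the annexin A2 complex binds, rose by 1.69 (SE 0.37, adjusted p = 0.0039), Ahnak, a giant scaffold bound by the same complex, by 1.66 (SE 0.30, adjusted p = 0.0017), and Myh9, the non-muscle myosin heavy chain bound by S100A4, by 1.79 (SE 0.33, adjusted p = 0.0016). Without Vehicle mouse 2 the log2 fold changes were 4.80 for Plaur and 1.08 for Plat, both still called. Htr1b, a serotonin receptor that binds S100A10, fell from 32.2 ± 4.20 to 9.09 ± 3.71 CPM (log2 fold change -1.83, SE 0.28, edgeR adjusted p = 6.89e-04). The other 2 lower genes, named after their values were seen, were Sugt1 (-0.34, SE 0.08) and Cacybp (-0.27, SE 0.10), both binding partners of S100A6. Cacybp was not called when any 1 of Sham mice 1, 3 and 4, Vehicle mice 1, 2 and 3 or LJP mice 1 and 3 was left out, with log2 fold changes of -0.35 to -0.24 over all mice left out in turn.

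The formyl peptide receptors of annexin A1 were near the floor. Fpr2 had 100 and 20 counts in Vehicle mice 1 and 2 and at most 2 counts in each of the other 10 mice, and Fpr1 lay at 4.49 and 0.99 CPM in those Vehicle mice and at no more than 0.60 in the others. The exact permutation p of Vehicle against Sham was 0.257 for Fpr2 and 0.0857 for Fpr1, whereas the DESeq2 adjusted p was 0.0051 for Fpr2 and 0.0036 for Fpr1. Fpr3 had no count in any mouse. In LJP none of the 26 tested genes was called by edgeR against Vehicle or against Sham. In LJP against Vehicle, 18 had an unadjusted edgeR p below 0.05, against 29.7% of all genes, with 17 lower, against 17.4%. DESeq2 called 13 of the 26 lower, against 9.15% of the genes it tested, and Htr1b higher. Outside the 26 it also called Fpr2 lower. In LJP against Sham, 7 had an unadjusted edgeR p below 0.05, against 18.8% of all genes, and DESeq2 called 3, against 7.65%. Against Vehicle, edgeR called 19 of 27 tested without Vehicle mouse 3 (21.6% of all genes) and 13 of 27 without Vehicle mouse 4 (11.7%). Against Sham it called 7 of 26 without Vehicle mouse 2 (13.3% of all genes) and 12 of 26 in a fit of LJP and Sham alone (23.8%).

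Summed markers of several cell types were also highest in Vehicle mouse 1 or 2, though not in the same order in every list. Their association with the genes above was not tested. The summed CPM of 10 markers of infiltrating monocytes and macrophages was 111 to 116 in Sham, 807, 1557, 306 and 394 in Vehicle, and 221, 163, 369 and 159 in LJP, and all 8 of its tested genes were called higher in Vehicle. That of 9 endothelial markers was 243 to 264 in Sham, 734, 1580, 337 and 403 in Vehicle and 237 to 302 in LJP. Of the 9, 7 were called higher in Vehicle, where 22.7% of all genes were called higher. The 9 fibroblast and meningeal markers summed to 245, 1586, 310 and 401 in the Vehicle mice, with mouse 1 the lowest of them, and to 191 to 269 in the Sham and LJP mice. The 7 border-associated macrophage markers summed to 12.98 to 15.3 in Sham, 79.5, 205, 34.6 and 45.5 in Vehicle and 17.0 to 31.8 in LJP. The 11 neutrophil markers, which include S100a8 and S100a9, summed to 167 and 40.9 in Vehicle mice 1 and 2, to 0.86 and 5.82 in Vehicle mice 3 and 4 and to at most 1.23 elsewhere, and Elane had no count in any mouse. Red blood cell genes reached 89.2 in Vehicle, against 3.89 to 5.99 in Sham. Called higher in Vehicle were 6 of 9 fibroblast, 6 of 7 border-associated macrophage, 6 of 9 microglial and all 5 red blood cell genes. Mural markers had 3 of 8, astrocyte 2 of 9, ependymal 2 of 7, oligodendrocyte 1 of 8 and neuronal 0 of 10. Lower calls were 2 neuronal and 1 astrocyte marker, against 17.3% of all genes. In LJP against Sham, 6 microglial, 2 astrocyte and 1 monocyte and macrophage marker were called higher, against 3.85% of all genes.

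Mural and oligodendrocyte markers were also highest in Vehicle mice 2 and 1. The mural sums were 235, 411, 217 and 202 in Vehicle, against 174 to 192 in Sham and 173 to 224 in LJP. The oligodendrocyte sums were 6122, 6255, 5765 and 5748 in Vehicle, against 4663 to 5684 in Sham and 4669 to 5715 in LJP.

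The microglial, astrocyte, neuronal and ependymal lists were not highest in Vehicle mice 1 and 2. The 9 microglial markers were 245 to 250 in Sham, 311, 660, 774 and 814 in Vehicle and 449 to 875 in LJP, so that Vehicle mouse 1, with the second highest Anxa2, had the lowest microglial sum of the Vehicle mice. Astrocyte markers summed to 4441 to 4841 in Sham, 4270, 5633, 6020 and 6529 in Vehicle and 5274 to 6406 in LJP. Neuronal markers summed to 10179 to 11135 in Sham, 8602, 6572, 10209 and 9725 in Vehicle and 9631 to 11480 in LJP, so that Vehicle mice 2 and 1 were the lowest of all 12. The ependymal and choroid plexus list varied widely, from 32.7 to 885 in Sham and from 26.4 to 388 in LJP, and lay at 72.9, 63.8, 525 and 486 in Vehicle. The high neuronal, glial and oligodendrocyte sums are those of brain tissue. The part of these cell types in the levels of the 10 genes was not tested.

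**Figure D5:**
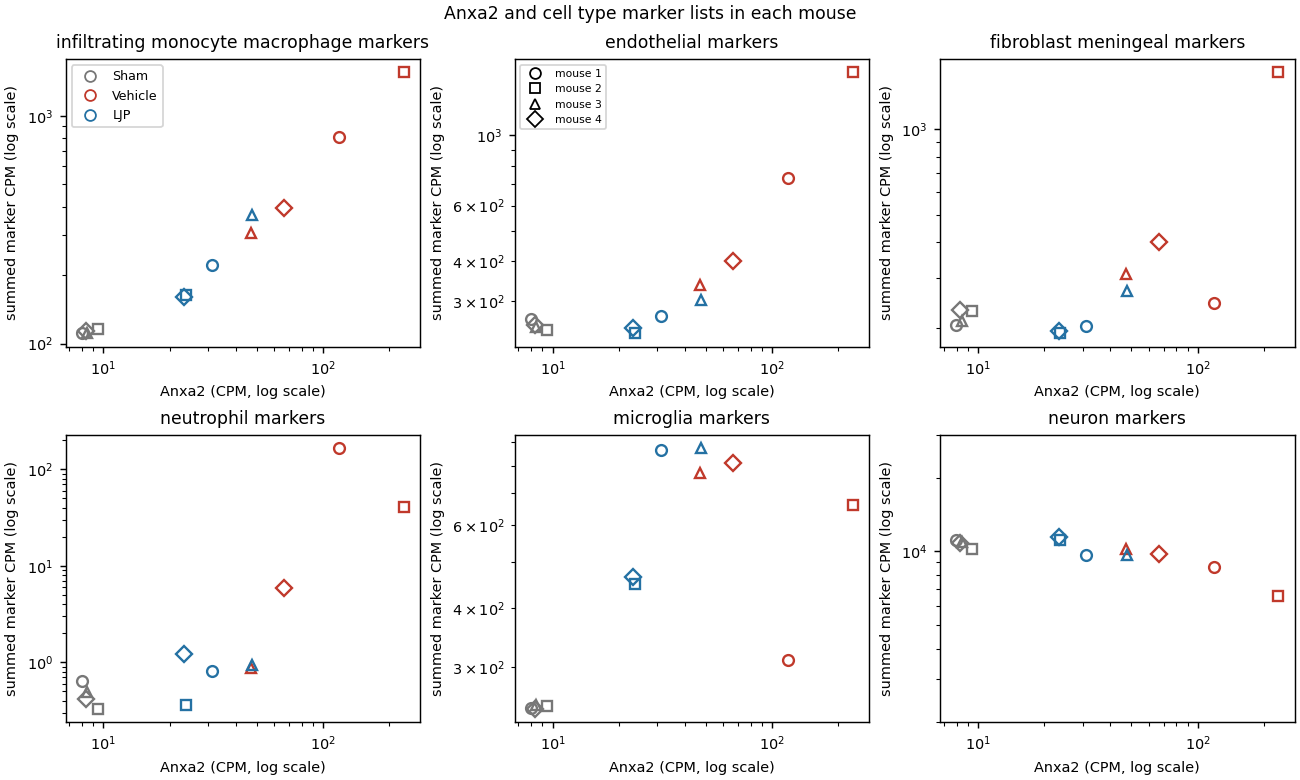
CPM of Anxa2 against the summed CPM of 6 marker lists in each of the 12 mice, both on log axes, with colours for the groups and symbols for the mouse numbers. Vehicle mouse 2 (red square) is the highest for Anxa2 and for the monocyte, endothelial and fibroblast lists, while the microglial sum of Vehicle mouse 1 (red circle) is low at 311.

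Genes outside both families were ranked by how closely their log2 CPM, centred on the Sham mean, followed that of Anxa2 over the 12 mice, by the root mean square difference among 14433 genes. The 5 closest were Vwf, von Willebrand factor of endothelium (0.22), Clic1, a chloride channel protein (0.23), Tagln2, an actin-binding protein (0.24), Ecm1, an extracellular matrix protein (0.26), and Msn, the membrane-cytoskeleton linker moesin (0.26). Their log2 fold changes in Vehicle lay between 3.42 for Msn and 3.68 for Ecm1. For S100b the closest were Sae1 (0.06), Snx3 (0.06), Naa60 (0.07), Tmcc3 (0.07) and Mrpl36 (0.07), whose log2 fold changes in Vehicle lay between -0.14 and -0.04. Any gene that varied little between the mice lies close to S100b by this measure.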

How the data were processed

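Ischemic-hemisphere poly(A) RNA of 12 mice was sequenced as paired-end reads. The authors deposited whole-number counts per gene, not normalized. The submitters' processing notes name featureCounts, DESeq2 and the builds GRCm39 and mm10 without their roles, and all 61 listed genes have the start and end of RefSeq GRCm38.p6. The aligner and the strand setting were not given in the sources used here.

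The tests used edgeR 4.0.16 under R 4.3.3. After filterByExpr 17558 genes remained, scaled by TMM, and the quasi-likelihood fit of all 12 mice had 1 term for each group and no replicate block. Benjamini-Hochberg adjustment covered all genes tested, with a threshold of 0.05. They measure the spread between these mice. Standard errors were derived from the F statistic. Low-count genes with over 3 counts in a mouse were compared by exact permutation (scipy 1.17.1) with a pseudocount of 0.5. RPKM used the deposited gene length. Log2 CPM had a prior count of 2. Floors cover counting error only. Mice of a group differed by more than sampling noise (chi-square per degree of freedom at least 2.54). Figures were drawn with matplotlib 3.10.9.

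The members and all lists were chosen with earlier results of these data known. Named were all 10 genes, at most 5 called genes with the smallest p per list and comparison, tested S100 genes of the chromosome 3 cluster, low-count genes, and the 5 closest to Anxa2 and S100b with a mean log2 CPM over 1. Alternatives were DESeq2 1.42.0, RLE or library-size scaling, no low-count filter, a replicate block, 2-group fits, the study's thresholds (absolute log2 fold change over 0.58, unadjusted p below 0.01), and leaving out mice.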

Additional observations from a re-analysis of the deposited data

Results flagged for a closer look

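In 4 of the 57 groups of 4 mice examined (the tested annexin and S100 genes in each group), 1 mouse stood apart, with its gap to the nearest mouse divided by the group's range above Dixon's critical value for 4 values. Chance gives about 1 in 20 such groups (5%). Vehicle mouse 2 was the high mouse for Anxa4 (22.7 CPM, gap 0.953 of the range), Anxa9 (3.14 CPM, 0.912) and S100a13 (27.5 CPM, 0.886). LJP mouse 2 was the low mouse for Anxa7 (61.7 CPM, 0.838).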

How the results depend on the processing

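In Vehicle against Sham, 7014 genes were called overall (5285 to 8200 with a mouse left out; 3807 at the study's thresholds), 9 of the 10 genes (9 to 9), 8 of the other family genes (7 to 10) and 20 partner and repair genes (17 to 21; 13 without Vehicle mice 1 and 2 together, chosen after seeing the data). In LJP against Vehicle, 4 genes were called overall: DESeq2 gave 2298, no low-count filter 593, the replicate block 2, the fit of 2 groups 2, leaving out Vehicle mice 1 and 2 together 8, the study's thresholds 1223, and leaving out a mouse 3 to 3857. For the 10 genes (0 called) the corresponding values were 7 with DESeq2, 5 without the filter, 6 at the study's thresholds and 0 to 6 with a mouse left out. The other family genes (0) gave 5, 3, 1 and 0 to 5, and the partner and repair genes (0) gave 15, 7, 10 and 0 to 19. In LJP against Sham, 834 genes were called: DESeq2 gave 1458, the replicate block 464, the fit of 2 groups 4043, leaving out Vehicle mice 1 and 2 together 4389 and leaving out a mouse 393 to 2357. The 10 genes (7 called) gave 4 with the replicate block and 4 to 8 with a mouse left out, the other family genes (4) gave 3 to 4, and the partner and repair genes (0) gave 3 with DESeq2, 12 with the fit of 2 groups, 12 without Vehicle mice 1 and 2, 1 at the study's thresholds and 0 to 7 with a mouse left out. The cause of these shifts was not tested, except that fits of fewer mice hold fewer samples. S100b in LJP against Vehicle (-0.03) ranged from -0.084 to 0.022 with a mouse left out, above 0 without Vehicle mouse 4 (0.022) and without LJP mouse 2 (0.011). Of 1101 values of single genes under alternatives, 1011 kept direction and side of the threshold, 33 passed it newly, 55 no longer passed it and 2 reversed. Same-numbered mice did not deviate together (correlations of -0.32 to 0.11). The labels do not say what the replicate numbers stand for, so these correlations cannot decide whether the mice were paired. The 5 genes closest to Anxa2 and to S100b were the same 5 with a mean log2 CPM over 3. Depth limits Anxa1, S100a4, Anxa8, Anxa9, S100a3, Fpr1 and Fpr2, which had few counts in Sham.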
